A study of Mus musculus with 54 samples.

Results

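The genes described here are the nuclear-encoded subunits and assembly factors of the mitochondrial respiratory chain and ATP synthase in mouse kidney. They were chosen by symbol alone (the Nduf a, b, c, s and v series, Sdha to Sdhd, Uqcr, Cox4 to Cox8 and Atp5 symbols, without pseudogene symbols), which gave 91 of the 33126 gene symbols of the series. Grouped by role, 7 were complex I core subunits, 31 complex I accessory subunits, 7 complex I assembly factors, 4 complex II subunits, 8 complex III subunits, 11 widespread and 6 tissue-restricted complex IV subunits, and 17 ATP synthase genes. Ndufa4 and Ndufa4l2 were counted with complex I by their symbols, although their products are now placed with complex IV.

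The series held 54 libraries in 18 groups of 3, of which 39 were 10x Chromium 3′ libraries with 175959 barcodes and 15 were bulk RNA-seq libraries, 6 of intact kidney and 9 of dissociated suspensions. Kidneys of C57BL/6J males of 19 weeks were dissociated cold (on ice, with a protease of Bacillus licheniformis) or warm (at body temperature, with a commercial enzyme kit), and the suspensions were profiled fresh, after cryopreservation or after methanol fixation with v2 chemistry, and fresh in bulk. Kidneys of Balb/c males of 18 weeks gave cold-dissociated fresh cells and nuclei (v2), and intact kidney in bulk. Kidneys of Balb/c females of 15 weeks gave cold-dissociated cells, fresh and cryopreserved, nuclei by 3 protocols (v3), and bulk libraries of intact kidney and of cold suspensions. The study's methods say that the C57BL/6J mice carried AFAPIL.1DEL and that the Balb/c females were former breeders. Every test below was made within 1 strain, sex, age and chemistry. Between groups, p-values measure the spread between the 3 libraries of a group. Between classes of the same libraries the library was a block, so they measure the spread of differences within libraries. In both cases edgeR shares its estimate of spread over genes, so a very small p-value does not come from 3 libraries of 1 gene alone. Stored C57BL/6J cells are aliquots of the fresh suspensions, and the main tests leave that pairing out. Counts with a replicate block are given where they moved.

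Oxidative phosphorylation passes electrons from NADH and succinate through complexes I to IV and uses the resulting proton gradient to drive ATP synthase. Its complexes hold products of both the nuclear and the mitochondrial genome, except complex II, which is wholly nuclear-encoded. In the kidney, tubule cells that move salt and solute, such as those of the proximal tubule, thick ascending limb and distal convoluted tubule, are rich in mitochondria, and endothelial and immune cells hold fewer.

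Nuclear genes of the respiratory chain are textbook targets of the factors NRF1, GABP (NRF2) and the ERR receptors, so the 250 bases before the start site were read for their core letters on both strands: GCGCATGC for NRF1, CCGGAAG for GABP and AAGGTCA for ERR. RefSeq (GRCm38.p6) gave this stretch for 73 of the 91 genes. The NRF1 letters stood in 9 of the 73 (12.3%, against 2.56% of 27025 genes), the GABP letters in 13 (17.8%, against 7.83%), and the ERR letters in 5 (6.85%, against 4.70%). Any of the 3 stood in 24 (32.9%, against 14.3%). A match is a string of letters and was not tested as a binding site. The stretches below are shown because Atp5l held all 3 motifs, Cox6a1 held overlapping NRF1 letters on both strands beside GABP letters, and Cox7a2 and its restricted paralogue Cox7a1, a pair compared between cell classes below, held none. Capitals mark the motif letters, and each reads 5′ to 3′ on the gene's strand: Atp5l chr9:44920743-44920992 (minus), Cox6a1 chr5:115348959-115349208 (minus), Cox7a2 chr9:79759854-79760103 (minus) and Cox7a1 chr7:30183921-30184170 (plus).
Atp5l: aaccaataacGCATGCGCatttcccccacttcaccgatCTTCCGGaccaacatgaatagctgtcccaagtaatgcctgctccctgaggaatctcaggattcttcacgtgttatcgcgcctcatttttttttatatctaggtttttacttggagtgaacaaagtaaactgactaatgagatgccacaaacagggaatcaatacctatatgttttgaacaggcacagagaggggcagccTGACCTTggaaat
Cox6a1: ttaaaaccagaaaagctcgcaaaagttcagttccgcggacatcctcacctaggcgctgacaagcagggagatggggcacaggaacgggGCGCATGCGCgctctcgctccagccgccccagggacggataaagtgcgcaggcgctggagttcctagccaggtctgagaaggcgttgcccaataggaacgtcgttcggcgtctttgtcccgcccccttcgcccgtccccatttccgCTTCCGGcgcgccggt
Cox7a2: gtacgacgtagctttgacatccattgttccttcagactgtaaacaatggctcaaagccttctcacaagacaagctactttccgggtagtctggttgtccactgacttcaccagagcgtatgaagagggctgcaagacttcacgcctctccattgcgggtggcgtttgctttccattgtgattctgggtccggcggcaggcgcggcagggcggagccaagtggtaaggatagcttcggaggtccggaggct
Cox7a1: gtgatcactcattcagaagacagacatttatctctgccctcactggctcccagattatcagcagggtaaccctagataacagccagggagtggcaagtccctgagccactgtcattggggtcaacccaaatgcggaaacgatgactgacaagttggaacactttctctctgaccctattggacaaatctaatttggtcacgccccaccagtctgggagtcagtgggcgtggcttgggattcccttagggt

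Library totals ran from 983522 to 35170947 UMIs for 10x and from 2326998 to 31093949 reads for bulk. Barcodes were clustered without the 91 genes, and clusters were named where at least 3 markers from a fixed list for a class were detected, so that a class name below means cells like that class by its markers. The C57BL/6J 10x libraries listed 89 members, the Balb/c cells 88 to 90, the nuclei 88 or 90 and the bulk libraries 90 or 91, and each comparison below gives how many of them passed the filter on low counts. Libraries of 1 set shared at most 1.78% of the smaller library's barcodes. Below, a level is the UMIs of a gene per 10000 UMIs of all nuclear-genome genes in that class and library, and a member is called at an adjusted p under 0.05 in edgeR's quasi-likelihood test over all genes tested. A change is a log2 fold change from that test after TMM scaling, with its SE. Shares of all genes called are at the adjusted p and after TMM. Member counts at an unadjusted p or under another setting (library totals, replicate block, DESeq2) have no all-gene share of their own beside them. Barcodes of every class also held free RNA, so the summed share of proximal tubule markers in other classes and of hemoglobin genes is given where it moved with a result.

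The question for cell classes was how the levels of these genes are spread over the nephron. In fresh cold-dissociated C57BL/6J cells the members listed there together took 15.6, 15.8 and 16.5% of nuclear-gene UMIs in the distal convoluted tubule. They took 12.7 to 14.1% in intercalated cells, 11.6 to 13.4% in the thick ascending limb and 11.5 to 12.8% in the connecting tubule, ranges that overlapped each other. The proximal tubule held 10.2, 10.3 and 10.8%, below each of those 4 classes and above principal cells (8.16 to 8.85%). Outside the tubule the share was 5.58% ± 0.12 (SD, n = 3) in mural cells, 4.68% ± 0.36 in podocytes, 3.71% ± 0.39 in endothelial cells and 3.19% ± 0.76 in macrophages. In the Balb/c females the distal convoluted tubule again held the highest share of the named classes, 14.2% ± 0.27, against 9.01% ± 0.038 in the proximal tubule and 3.09% ± 0.15 in endothelial cells. The Balb/c males gave 14.8% ± 0.24, 10.1% ± 0.46 and 5.14% ± 0.30 for the same classes.

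**Figure D1:**
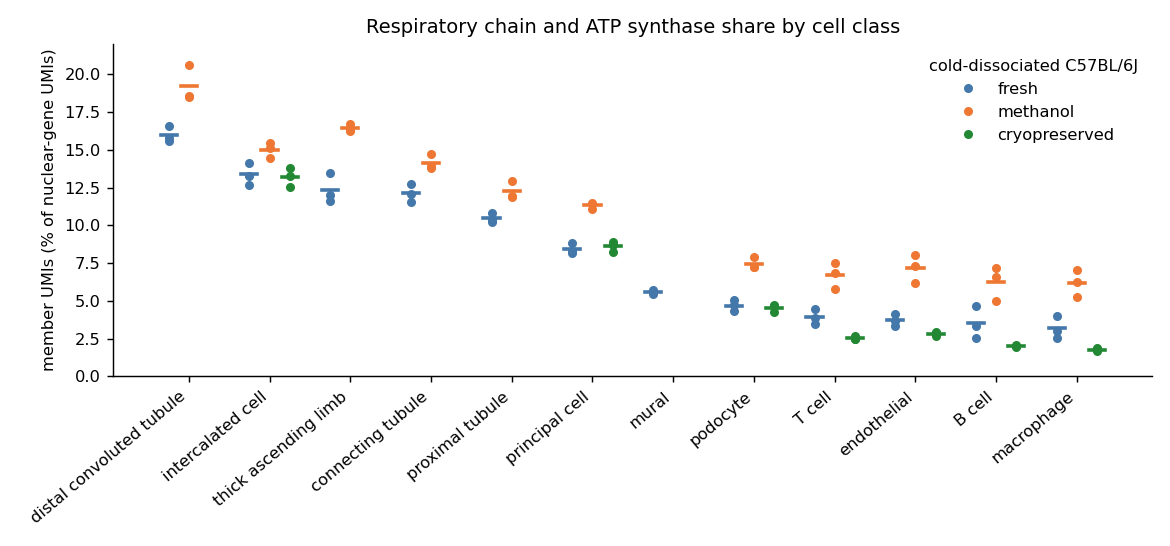
UMIs of the 89 listed members of the 91 genes as a percent of all nuclear-gene UMIs (vertical axis) by cell class (horizontal axis), in cold-dissociated C57BL/6J libraries that were fresh, methanol-fixed or cryopreserved; points are libraries and bars are means of 3. Distal convoluted tubule stands highest among fresh classes (15.6 to 16.5%), and endothelial cells go from a mean of 3.71% fresh to 7.17% after methanol and 2.83% after cryopreservation.

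Complex IV and complex I accessory subunits carried most of this share. In the fresh cold proximal tubule, complex I accessory genes took 3.24% ± 0.089 of UMIs, widespread complex IV genes 2.90% ± 0.089, ATP synthase genes 2.44% ± 0.076 and complex III genes 1.33% ± 0.069. Core complex I subunits took 0.296% ± 0.018, complex II 0.192% ± 0.023 and the complex I assembly factors 0.0384% ± 0.0023. The accessory sum includes Ndufa4, whose product is now placed with complex IV. The order of the first 2 roles in the proximal tubule rests on that placement, and widespread complex IV would lead with Ndufa4 moved to it. With the grouping by symbol, endothelial cells had the same order of roles, from 1.22% ± 0.15 for complex I accessory genes to 0.0270% ± 0.0040 for assembly factors.

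Against the proximal tubule, 81 of 86 members tested were lower in endothelial cells and 0 were higher, where 62.4% of all 9283 genes tested were called, 31.6% lower. The median change was -1.85 on the log2 scale, and leaving out 1 library at a time gave 79 to 82 calls. Atp5g3, which encodes a copy of the ATP synthase c-ring subunit, had 10.9, 11.8 and 14.5 UMIs per 10000 in the proximal tubule and 2.04, 1.88 and 3.46 in endothelial cells, a change of -2.74 ± 0.17 (adjusted p = 7.6e-56). That p-value rests on a spread shared over genes as well as on these libraries. Cox7a1 changed by -2.48 ± 0.26 and Ndufaf6, an assembly factor of complex I, by -2.40 ± 0.35. The reference subunits, fixed as 1 gene of each complex, were all lower: Ndufs1 by -1.94 ± 0.22, Sdha by -1.63 ± 0.17, Uqcrc1 by -1.51 ± 0.16, Cox5a by -2.19 ± 0.16 and Atp5b by -2.09 ± 0.16. All 13 citric acid cycle genes tested were lower too, as were 10 of 11 genes for electron carriers and metabolite exchange and 21 of 36 other assembly factors, with 1 higher in each of the latter lists. Macrophages had 80 members lower and 1 higher (51.6% of all genes called), and podocytes had 80 lower and 0 higher (55.8%).

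The higher one in macrophages was Cox7a2l, whose product sits in respiratory supercomplexes. It had 2.76, 2.45 and 2.13 UMIs per 10000 in the proximal tubule and 5.79, 5.26 and 3.51 in macrophages, which did not overlap. The change was 1.08 ± 0.18 (edgeR adjusted p = 1.4e-06). In the Balb/c females the same difference was 0.28 ± 0.16 and did not pass the test. Cox7a2l was named after its value was seen, as the only exception in its direction.

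Among tubule classes the direction depended on the scaling and on the set of libraries. In the cold-dissociated C57BL/6J set, between thick ascending limb and proximal tubule, 32 of 86 members were called with TMM, 5 higher and 27 lower, where 37.2% of 8565 genes were called (15.9% higher, 21.4% lower). With library totals in place of TMM, 33 were higher and 4 lower, and the median of all genes shifted by 0.39. DESeq2 called 0 higher and 6 lower. Without the cold fresh library of replicate 2 the count was 18. The warm-dissociated C57BL/6J set had the opposite balance with TMM, 35 higher and 9 lower of 86 (46.4% of all genes called; 13 and 4 by DESeq2). The Balb/c males had 18 higher and 10 lower of 84 (39.7% called), and the Balb/c females 22 higher and 24 lower of 87 (60.0% called). Cox7b, a small subunit of complex IV, had 10.8, 10.4 and 10.5 UMIs per 10000 in the proximal tubule and 22.2, 17.7 and 21.7 in the thick ascending limb (0.57 ± 0.10, adjusted p = 9.9e-06). Atp5h, of the ATP synthase peripheral stalk, rose from 12.4, 10.4 and 11 to 22.4, 17.6 and 16.7 (0.36 ± 0.10), and Cox5b, the complex IV subunit that binds zinc, from 20.3, 19.8 and 22.4 to 39.4, 30.6 and 32.2 (0.32 ± 0.10).

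The 27 members lower in the limb of the cold-dissociated C57BL/6J set were 14 of 30 accessory, 3 of 7 assembly and 1 of 7 core genes of complex I, 3 of 8 genes of complex III, 3 of 11 of widespread complex IV, 2 of 17 of ATP synthase and 1 of 4 of complex II. With library totals 4 members were lower in all, so this breakdown holds for the TMM scaling of that set. Ndufv3, which encodes an accessory subunit beside the NADH-binding site, had 12.1, 12.6 and 14.1 UMIs per 10000 in the proximal tubule and 8.48, 6.77 and 7.62 in the thick ascending limb (-1.16 ± 0.12, adjusted p = 2.6e-11). The assembly factor Ndufaf6 had 0.635, 0.523 and 0.497 against 0.399, 0.251 and 0.0657 (-1.68 ± 0.43), and the assembly factor Ndufaf1 changed by -1.47 ± 0.46. As examples from the 46 members called in the Balb/c females, the fitted changes of the same comparison were 0.52 ± 0.07 for Cox7b, 0.44 ± 0.06 for Atp5h, 0.44 ± 0.06 for Cox5b, -0.67 ± 0.07 for Ndufv3, -1.10 ± 0.13 for Ndufaf6 and -0.71 ± 0.15 for Ndufaf1, each with an adjusted p under 0.05.

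In the distal convoluted tubule 33 members were higher and 3 lower than in the proximal tubule (35.7% of all genes called, 15.0% higher), 63 and 2 with library totals and 8 and 2 by DESeq2. Connecting tubule gave 6 higher and 9 lower (29.8% called), 19 and 4 with totals and 1 and 1 by DESeq2, and intercalated cells 15 and 14 (38.6% called), 55 and 4 with totals and 4 and 6 by DESeq2. Principal cells had 1 higher and 72 lower (43.6% called, median -0.78), and 7 and 42 with totals. In the warm C57BL/6J set, the Balb/c males and the Balb/c females, principal cells had 1 higher and 72 lower, 2 and 57, and 0 and 81 (39.1, 45.6 and 59.0% of all genes called), and the distal convoluted tubule 36 and 6, 22 and 2, and 57 and 9 (40.6, 31.4 and 54.6%). In the same order, the connecting tubule had 4 and 31, 7 and 12, and 42 and 14 (35.6, 39.5 and 53.2%), and intercalated cells 3 and 22, 6 and 27, and 10 and 39 (34.3, 52.8 and 52.8%). With library totals the connecting tubule had 23 and 6, 33 and 6, and 55 and 10, and intercalated cells 44 and 4, 31 and 10, and 55 and 7. The shares of all genes above are those with TMM and do not apply to counts with totals or by DESeq2. In these 4 fresh sets principal cells were thus mostly lower and the distal convoluted tubule mostly higher with TMM and with totals, while the balance of the connecting tubule and of intercalated cells changed with the set and the scaling.

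Paralogues that are held to be tissue-restricted were found at very different levels between classes. Cox4i2, the variant of the subunit IV gene Cox4i1 known from lung and from oxygen-sensing cells, had 7.38, 6.41 and 5.67 UMIs per 10000 in C57BL/6J mural cells (48, 64 and 38 UMIs). It had 3 UMIs in all proximal tubule cells of the same libraries and none in the thick ascending limb, the distal convoluted tubule, the intercalated or the principal cells, where the floor of 3 counts was not reached. Of 157 Cox4i2 UMIs in these 3 libraries, 150 came from mural cells. The Balb/c females gave 4.58, 5.61 and 3.77 in mural cells, with 315 of 336 UMIs.

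Ndufa4l2, a paralogue of Ndufa4 known as a hypoxia-inducible gene and a marker of pericytes, had 12.9, 11.6 and 11.5 UMIs per 10000 in C57BL/6J mural cells and 0.0117, 0.00623 and 0.00633 in the proximal tubule. The mural libraries were all far above every proximal tubule library. The Balb/c females had 7.03, 6.34 and 5.52 in mural cells and the Balb/c males 5.27, 9.34 and 2.42. The widespread partner Ndufa4 went the other way, with 40.3 ± 2.5 in the C57BL/6J proximal tubule and 12.7 ± 0.34 in mural cells (-2.17 ± 0.17), as did Cox4i1, with 35.7 ± 1.1 and 15.9 ± 1.7 (-1.68 ± 0.17; n = 3 libraries each). Cox4i2 and Ndufa4l2 passed the filter on low counts only through the mural libraries, so no test of theirs is given. Of the other 86 members, 78 were lower in mural cells than in the proximal tubule and 1, Cox6b2, was higher (39.4% of all genes called). Cox6b2, the testis form of subunit VIb, had 0.709 ± 0.33 in mural cells against 0.198 ± 0.047 (1.32 ± 0.50) in C57BL/6J, while in the Balb/c females it was lower in mural cells (-2.83 ± 0.33).

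Cox7a1, the heart and muscle form of subunit VIIa, was led by intercalated cells. In C57BL/6J it had 9.58, 6.34 and 8.26 UMIs per 10000 there and 1.07, 1.16 and 1.25 in the proximal tubule, groups that did not overlap (2.42 ± 0.13, edgeR adjusted p = 5.1e-19). Principal cells had 3.01 ± 0.42, the thick ascending limb 1.81 ± 0.62, the distal convoluted tubule 1.40 ± 0.14 and endothelial cells 0.262 ± 0.17 (n = 3). The difference between intercalated cells and proximal tubule was 1.86 ± 0.11 in the Balb/c females and 2.38 ± 0.15 in the Balb/c males. The widespread Cox7a2 differed by 0.14 ± 0.09, 0.00 ± 0.09 and -0.13 ± 0.14 in the 3 sets, and did not pass the test in any. Of the other restricted complex IV genes, Cox6a2 had 0.0314 to 0.0807 UMIs per 10000 in the proximal tubule (means of the 3 sets of fresh cold cells), Cox8b is described with the bulk libraries and Cox8c was listed in 6 libraries.

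**Figure D2:**
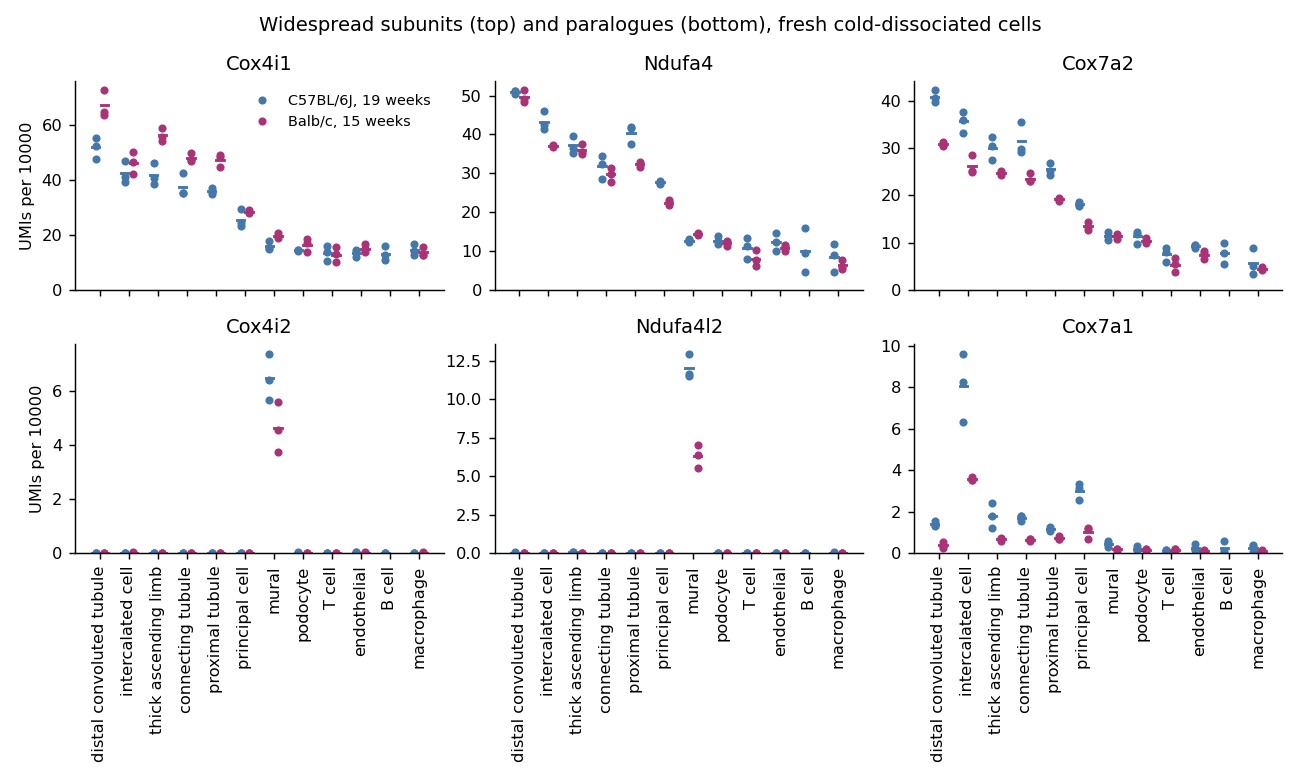
UMIs per 10000 nuclear-gene UMIs (vertical axes) of the widespread genes Cox4i1, Ndufa4 and Cox7a2 and of their restricted paralogues Cox4i2, Ndufa4l2 and Cox7a1 by cell class (horizontal axes), in fresh cold-dissociated C57BL/6J and 15-week Balb/c libraries; points are libraries. Cox4i2 and Ndufa4l2 stand out in mural cells, and Cox7a1 in intercalated cells (6.34 to 9.58 in C57BL/6J).

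The dissociation comparison asked whether digestion at body temperature moves these genes. In bulk RNA-seq of C57BL/6J suspensions, 0 of 86 members passed edgeR's test between warm and cold, 4 had an unadjusted p under 0.05, and DESeq2 called 0, where 8.68% of 14102 genes were called (5.42% higher, 3.26% lower). The median member change was -0.00 and the summed share was 1.67% ± 0.055 in cold and 1.67% ± 0.047 in warm suspensions. In bulk samples fewer cells of a type and less RNA per cell cannot be told apart. Of 11 transcriptional regulators of mitochondrial genes, 3 were higher after warm dissociation, and 1 of 36 other assembly factors was lower.

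In fresh proximal tubule cells, 7 of 87 members differed between warm and cold (6.73% of 9679 genes called, 2.72% higher and 4.01% lower), 5 higher and 2 lower. These were 8.05% of the members, near the share of all genes. Sdhd, a membrane anchor of complex II, went from 3.08, 2.42 and 1.96 UMIs per 10000 to 3.89, 3.45 and 3.97 (0.65 ± 0.14, adjusted p = 0.023). Ndufa10 went from 3.88, 3.34 and 3.32 to 4.66, 4.48 and 4.84 (0.46 ± 0.10), and Atp5c1, the central stalk of ATP synthase, from 8.48, 7.47 and 6.62 to 9.96, 9.11 and 10.2 (0.43 ± 0.10). In the other direction, Atp5g3 went from 10.9, 11.8 and 14.5 to 7.98, 7.96 and 8.89 (-0.53 ± 0.11), and Uqcr11, a small complex III subunit, from 28.2, 31.0 and 35.9 to 21.6, 24.5 and 22.8 (-0.41 ± 0.10). The groups did not overlap in any of these 5 genes, which were named because they were called in the same libraries.

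These calls turned on single libraries and on scaling. Without cold fresh replicate 1 the count was 21, and it was 0 without cold fresh replicate 2 or 3 or without warm fresh replicate 1 or 3. With library totals 13 were called, 3 higher and 10 lower. In the thick ascending limb 1 of 81 members passed (4.61% of genes called). There 24 had an unadjusted p under 0.05, 67 of the 81 changes were upward and the median was 0.17. The count was 4 with the number in the column headers as a replicate block. Between warm and cold libraries that number cannot be 1 kidney, since a kidney was digested either warm or cold. The labels do not say whether it is 1 mouse that gave both kidneys, so the tests of warm against cold may leave a pairing out. In the distal convoluted tubule, connecting tubule, principal, intercalated, endothelial, macrophage and T cells edgeR called 0, beside 0.335, 0.327, 2.80, 1.17, 1.53, 4.07 and 4.46% of all genes called. At an unadjusted p under 0.05 there were 10, 13, 9, 10, 6, 3 and 10 members, a looser threshold with no all-gene share given.

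After methanol fixation more members were higher than lower in every class tested. In the proximal tubule of cold-dissociated kidneys 48 of 87 members were higher and 0 lower than in fresh cells, where 21.9% of 9691 genes were called (10.3% higher, 11.6% lower), and the median member change was 0.34 against -0.04 for all genes. Uqcrb, a ubiquinone-binding complex III subunit, went from 14.2, 11.2 and 9.47 to 23.5, 24.5 and 25.6 UMIs per 10000 (1.14 ± 0.13, adjusted p = 0.00015). Sdhd went from 3.08, 2.42 and 1.96 to 4.76, 4.30 and 4.30 (0.90 ± 0.14). Neither gene's groups overlapped, whereas those of Atp5s, the coupling factor B gene, did, with 0.128, 0.0779 and 0.0759 fresh and 0.202, 0.176 and 0.118 fixed (0.84 ± 0.27). Of the reference subunits, Cox5a (0.56 ± 0.08) and Uqcrc1 (0.35 ± 0.09) passed, and Ndufs1 (0.30 ± 0.12), Atp5b (0.10 ± 0.09) and Sdha (0.08 ± 0.09) did not.

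By role, the calls in the methanol-fixed proximal tubule covered 5 of 7 core and 21 of 30 accessory complex I subunits, 3 of 4 in complex II, 4 of 8 in complex III, 3 of 11 widespread complex IV genes and 8 of 17 ATP synthase genes. Of the neighbouring lists, 9 of 11 carrier and exchange genes, 3 of 13 citric acid cycle genes and 8 of 36 other assembly factors were higher, and 2 of 10 regulators were lower. Without cold fresh replicate 2 the count of members was 25 and without methanol replicate 2 it was 30. After warm dissociation 35 of 87 members were higher and 0 lower (11.4% of 9169 genes called, 4.68% higher), which fell to 19 without warm fresh replicate 1 and 17 without warm fresh replicate 3. Uqcrb again led, from 14.4, 12.6 and 16.7 to 24.9, 26.5 and 24.3 (0.80 ± 0.11), followed by Cox7a1, from 0.941, 0.915 and 0.870 to 1.33, 1.37 and 1.77 (0.69 ± 0.12), and Ndufaf6, from 0.571, 0.614 and 0.543 to 1.04, 0.839 and 0.848 (0.66 ± 0.13). Of the other classes after warm dissociation, the thick ascending limb had 19 of 82 members higher (5.13% of genes higher; DESeq2 13), macrophages 9 of 74 (3.07%; 14 with the replicate block) and the connecting tubule 4 of 76 higher and 1 lower (4.24% higher; 9 and 0 with totals, 2 and 0 by DESeq2).

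Endothelial cells showed the largest median change with methanol among the classes after cold dissociation. There 70 of 79 members were higher and 0 lower (13.1% of all genes higher), with a median of 0.90. Cox5a went from 3.73, 4.19 and 6.13 to 10.1, 11.1 and 13.7 UMIs per 10000 (1.26 ± 0.22, adjusted p = 0.00065), and Atp5b from 8.63, 6.70 and 8.88 to 12.8, 15.4 and 12.6 (0.72 ± 0.19). In macrophages 45 of 74 were higher (11.1% of genes higher, median 0.74; 60 with the replicate block), and in podocytes 43 of 77 (11.4%, median 0.55). T cells had 17 of 72 higher (6.85%; 29 with the block, 10 by DESeq2) and B cells 9 of 72 (5.61%; 41 with the block, 25 with totals, 6 by DESeq2). The change was larger in endothelial cells than in the proximal tubule for 27 of 86 members and smaller for 0 (edgeR interaction test, 5.97% of genes called), and 46 were called with library totals. Between macrophages and proximal tubule it was larger in macrophages for 7 of 86 (2.18% of genes called), or 27 with totals. Tubule classes had smaller medians: thick ascending limb 33 higher and 1 lower of 79 (9.96% of genes higher, median 0.36), distal convoluted tubule 28 and 1 of 80 (11.8%, 0.20), principal cells 25 and 0 of 79 (8.05%, 0.34), connecting tubule 9 and 2 of 78 (5.74%, 0.09; 20 called with the block, and 18 higher and 0 lower with totals) and intercalated cells 8 and 1 of 79 (6.39%, 0.12; 14 and 1 with totals). DESeq2 called fewer members higher in the tubule classes: 22 in the thick ascending limb, 9 in the distal convoluted tubule, 13 in principal cells, 1 in the connecting tubule and 4 in intercalated cells.

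Free RNA moved in the same direction. The summed share of proximal tubule markers in endothelial barcodes was 0.328 to 0.452% in fresh cold libraries and 0.658 to 1.03% in methanol-fixed ones. Hemoglobin genes there went from 0.79 to 3.6% to 2.1 to 4.9%, which overlapped. In the same libraries these markers went from 0.284 to 0.517% up to 0.805 to 0.991% in macrophages, from 0.219 to 0.242% up to 0.608 to 0.824% in podocytes, from 0.289 to 0.556% up to 0.783 to 1.03% in B cells, and from 0.191 to 0.439% to 0.424 to 0.678% in T cells, where the groups overlapped. Hemoglobin genes went from 0.859 to 1.01% up to 2.43 to 4.31% in macrophages, from 0.462 to 1.05% up to 1.77 to 6.54% in B cells and from 0.373 to 2.08% up to 2.12 to 3.71% in T cells, and in podocytes from 0.296 to 1.36% to 1.15 to 3.34%, which overlapped. Over the thick ascending limb, distal convoluted tubule, connecting tubule, principal and intercalated cells the markers took 0.154 to 0.401% fresh and 0.479 to 0.913% fixed. After warm dissociation the markers overlapped between fresh and fixed libraries in macrophages (0.352 to 0.941% and 0.636 to 0.852%) and the thick ascending limb (0.283 to 0.557% and 0.475 to 0.640%). The proximal tubule itself holds a higher share of member UMIs than endothelial cells. The part of free RNA in the higher levels of these classes was not tested.

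**Figure D3:**
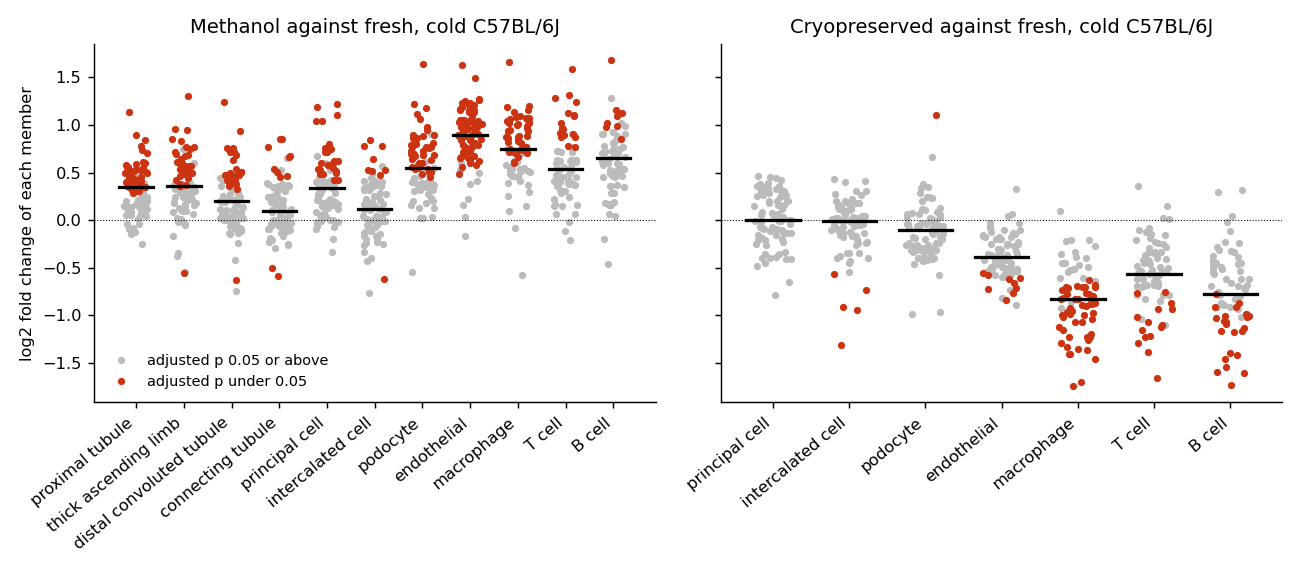
Log2 fold change of each member (vertical axis) by cell class (horizontal axis) for methanol-fixed and for cryopreserved against fresh cells of cold-dissociated C57BL/6J kidney; points are genes, red where the adjusted p was under 0.05, and black bars are medians. Under methanol the median is highest in endothelial cells (0.90), and under cryopreservation it is lowest in macrophages (-0.83); both contrasts use the same fresh libraries.

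Cryopreservation went the other way in macrophages and lymphocytes of cold-dissociated C57BL/6J kidney, in a comparison that shares its fresh libraries with the methanol one. In macrophages 50 of 74 members were lower and 0 higher (7.78% of genes lower), with a median of -0.83. Cox5a went from 3.61, 3.83 and 5.28 to 1.23, 1.59 and 1.90 UMIs per 10000 (-1.35 ± 0.24, adjusted p = 1e-04), Sdha from 1.12, 1.84 and 1.50 to 0.701, 0.323 and 0.292 (-1.70 ± 0.32), and Atp5b from 5.29, 5.86 and 7.60 to 3.33, 2.97 and 2.89 (-0.95 ± 0.21). The fresh and thawed libraries did not overlap in these 3 genes. B cells had 23 of 69 members lower (7.52% of genes lower; 35 with totals) and T cells 15 of 74 (5.05%; 24 with the replicate block, 32 with totals and 7 by DESeq2). Intercalated cells had 5 of 80 lower (2.82%; 1 by DESeq2), podocytes 1 of 76 higher (0.766% of genes higher; 3 called with the block, 0 by DESeq2) and principal cells 0 of 79 in edgeR (2.97% called; 9 at an unadjusted p under 0.05 and 0 by DESeq2). Proximal tubule markers took 0.284 to 0.517% of macrophage UMIs fresh and 0.0153 to 0.0229% thawed, 0.289 to 0.556% and 0.0143 to 0.0208% in B cells, and 0.191 to 0.439% and 0.0126 to 0.0240% in T cells. Hemoglobin genes took 0.859 to 1.01% of macrophage UMIs fresh and at most 0.00694% thawed. The part of this RNA from other cells in the lower member levels was not tested. The proximal tubule was not tested, since its 3 thawed libraries held 13 barcodes in all after cold and 21 after warm dissociation.

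In endothelial cells of the same kidneys 9 of 78 members were lower and 0 higher (7.70% of 4972 genes called, 3.82% lower), with a median of -0.39. Atp5g1, another c-ring gene, went from 5.60, 5.39 and 6.58 to 3.47, 3.40 and 3.23 UMIs per 10000 (-0.76 ± 0.16, adjusted p = 0.0058). Sdhc, a membrane anchor of complex II, went from 1.52, 0.942 and 1.36 to 0.827, 0.557 and 0.670 (-0.84 ± 0.25), and Uqcrq from 5.13, 6.70 and 8.77 to 3.94, 4.56 and 3.78 (-0.72 ± 0.20). None of the 3 overlapped between groups. With the kidney number as a replicate block 26 members were lower, 18 with library totals, 4 with DESeq2 and 3 with doublets removed. The count was 1 without fresh replicate 3 and 2 without any of the 3 thawed libraries. Proximal tubule markers in these barcodes fell from 0.328 to 0.452% when fresh to 0.044 to 0.061% when thawed, and hemoglobin genes from 0.79 to 3.6% to at most 0.009%, and their part was not tested.

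After warm dissociation the endothelial result did not hold that direction. There 2 of 78 members were higher and 0 lower (8.95% of 4580 genes called, 5.81% higher), Atp5g3 from 2.01, 2.62 and 2.15 to 3.91, 3.31 and 2.71 (0.65 ± 0.19) and Cox8a from 9.43, 11.6 and 10.2 to 14.8, 12.1 and 12.8 (0.49 ± 0.13). With the block or DESeq2 the count was 0, with library totals 1 was lower and 0 higher, and with doublets removed 13 were called. Leaving out 1 library gave 7 without warm fresh replicate 2, 1 without cryopreserved replicate 2 or 3, and 0 without any of the others. The difference between the warm and the cold change was called for 1 of 80 endothelial members (edgeR interaction test, 0.589% of genes called), with 35 at an unadjusted p under 0.05 and a median difference of 0.50. It was called for 0 of 74 members in macrophages (1.13% of genes; 4 at an unadjusted p under 0.05) and 0 of 80 in intercalated cells (0.0360%; 13). Macrophages had 16 of 73 lower (7.04% of genes lower, median -0.56; 40 with totals, 6 by DESeq2), intercalated cells 12 of 80 (4.79%; 22 with totals, 7 by DESeq2), T cells 8 of 67 (5.10%; 4 with the block, 0 by DESeq2) and the thick ascending limb 6 of 81 (3.25%; 21 with totals, 3 by DESeq2). Principal cells had 1 of 76 (2.44%; 3 with the block, 0 by DESeq2), and edgeR called 0 of 76 in the distal convoluted tubule (3.78% called; 12 at an unadjusted p under 0.05, 0 by DESeq2). In macrophages, proximal tubule markers took 0.352 to 0.941% of UMIs in fresh warm and 0.0207 to 0.0321% in thawed libraries, and 0.283 to 0.557% and 0.0223 to 0.0497% in the thick ascending limb, and their part was not tested.

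Cryopreserved Balb/c cells kept enough tubule cells to test. The paper reports a significant depletion of proximal tubule cells among them, so the thawed cells tested are those that were recovered. The part of that loss in the changes below was not tested. They were aliquots of suspensions profiled fresh, but the labels do not tie single thawed and fresh libraries to each other, so the test was unpaired. In the proximal tubule 54 of 86 members were lower and 0 higher (7.83% of genes lower), with a median of -0.56. With library totals 36 were lower and 1 higher. Cox6a1, the liver form of subunit VIa, went from 15.0, 14.6 and 14.4 to 9.61, 7.72 and 6.75 UMIs per 10000 (-1.06 ± 0.12, adjusted p = 6.3e-06), and Cox5a from 21.5, 20.1 and 19.3 to 13.7, 13.7 and 14.1 (-0.74 ± 0.11). Atp5b did not pass, with 31.2, 29.6 and 30.3 fresh and 38.0, 31.7 and 35.0 thawed (0.01 ± 0.11). Thick ascending limb had 31 of 86 lower (2.66%; 12 with totals), thin limb 31 of 80 (1.92%; 21 with totals), connecting tubule 23 of 82 (3.96%), intercalated cells 13 of 86 (3.55%; 6 with totals, 3 by DESeq2) and macrophages 10 of 75 (2.32%; 23 with totals, 5 by DESeq2). The remaining classes had few calls or none, with principal cells at 2 of 84 lower (1.67%), mural cells at 2 of 80 (0.679%) and the distal convoluted tubule at 1 of 85 (0.164%; 4 by DESeq2). In podocytes, T cells and NK cells edgeR and DESeq2 called 0 of 78, 56 and 67, beside 0.790, 0.274 and 0% of all genes called by edgeR. At the looser unadjusted p under 0.05 there were 15, 2 and 5 members. In the thick ascending limb, proximal tubule markers took 0.112 to 0.286% of UMIs fresh and 0.0205 to 0.0234% thawed, and 0.137 to 0.183% and 0.0252 to 0.0368% in the connecting tubule, and their part was not tested. The median share of UMIs from mitochondrially encoded genes per proximal tubule cell was 37.7 to 38.5% fresh and 40.3 to 43.1% thawed, and its part was not tested.

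Balb/c endothelial cells had 7 of 79 members lower and 0 higher (1.90% of 7260 genes called, 1.45% lower). Cox7b went from 3.21, 4.42 and 3.11 to 2.49, 2.15 and 1.78 UMIs per 10000 (-0.75 ± 0.17, adjusted p = 0.024), Cox6a1 from 6.10, 6.09 and 5.77 to 4.25, 4.18 and 3.22 (-0.63 ± 0.14) and Ndufv3 from 2.38, 2.06 and 2.01 to 1.62, 1.34 and 1.25 (-0.63 ± 0.15). The count was 27 without cryopreserved replicate 1. It was 2 without fresh replicate 1 or 3, and 0 without fresh replicate 2 or cryopreserved replicate 2 or 3. It was 1 with DESeq2 and 0 with doublets removed. Proximal tubule markers took 0.140 to 0.203% of fresh and 0.0703 to 0.0854% of thawed endothelial UMIs, and the median mitochondrial share rose from 20.5 to 25.7% up to 35.0 to 38.3%.

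Nuclei held far less of this RNA than cells. In the proximal tubule of the Balb/c males the 90 members listed took 10.1% ± 0.46 of UMIs in cells and 0.708% ± 0.059 in nuclei made with 3 washes at low speed (3x500g), and in the females 9.01% ± 0.038 (90 listed) and 0.375% ± 0.044 (88 listed). Cox4i1 and Ndufa13 were at 0 in the male nuclei and not listed in the female ones, and their values in nuclei are uncertain, since annotated genes overlap both. Without them, a choice made after seeing the data, cells held 9.61% ± 0.41 in males and 8.37% ± 0.065 in females, with the nuclei as before. Cells were counted on exonic reads and nuclei on intronic and exonic reads, so the 2 measures differ by construction as well as by material. In the males 83 of 86 members were lower in nuclei and 2 higher (79.5% of 11698 genes called, 50.8% higher and 28.7% lower), with a median of -4.06 against 0.69 for all genes. The 83 include Cox4i1 and Ndufa13, without which 81 of 84 were lower. Neither was tested in the females. In the females 83 were lower and 2 higher (85.6% of 12405 called, 44.8% higher and 40.8% lower), with a median of -5.57 against 0.15. Library totals moved the all-gene median by 0.47 in males and 0.76 in females and left 2 members higher and 80 lower, and 3 and 80.

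Ndufb8, an accessory subunit of complex I, went from 14.3, 13.6 and 12.0 UMIs per 10000 in male cells to 0.262, 0.329 and 0.211 in nuclei (-6.10 ± 0.21, adjusted p = 3.8e-11), and from 12.6, 12.1 and 12.0 to 0.0839, 0.128 and 0.0915 in females (-7.68 ± 0.17). A same-strand gene covers 62.0% of Ndufb8, so its values in nuclei are uncertain. Atp5h fell by 7.47 ± 0.15 and Ndufa4 by 7.30 ± 0.18 on the log2 scale in females. The reference subunits were spread widely, from Ndufs1 (-1.02 ± 0.15 in males, -1.58 ± 0.09 in females) over Sdha (-2.50 ± 0.14, -2.99 ± 0.09), Uqcrc1 (-2.59 ± 0.16, -3.82 ± 0.10) and Atp5b (-3.72 ± 0.16, -5.19 ± 0.13) to Cox5a (-4.37 ± 0.18, -5.78 ± 0.15). By role the medians of males and females were -1.22 and -1.11 for complex I assembly factors, -2.64 and -3.41 for complex II, -3.15 and -5.00 for core complex I, -3.96 and -5.61 for ATP synthase, -4.37 and -5.81 for widespread complex IV, -4.37 and -5.89 for accessory complex I and -4.51 and -6.25 for complex III.

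The 2 members higher in nuclei were Atp5s and Atp5sl in both sets, which encode small factors related to ATP synthase by name rather than subunits of its core. Atp5sl is the symbol in the files for Dmac2. Atp5s had 0.206, 0.0856 and 0.0525 UMIs per 10000 in male cells and 0.430, 0.467 and 0.379 in nuclei (1.47 ± 0.32), and Atp5sl 0.400, 0.264 and 0.354 against 1.26, 1.39 and 1.35 (1.55 ± 0.17). In females the changes were 1.62 ± 0.11 for Atp5s and 0.41 ± 0.13 for Atp5sl. Of 11 regulators, 7 were higher and 3 lower in both sets, while all 11 carrier and exchange genes tested in males and all 10 in females were lower.

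Cox4i1 and Ndufa13 had 0 counts in the male proximal tubule nuclei, against 24.6, 28.7 and 19.9 and 21.4, 20.7 and 19.1 UMIs per 10000 in cells. With a floor of 3 counts per library, Cox4i1 was at least 3479-fold lower and Ndufa13 at least 2909-fold lower. They had no values in the female nuclei and were not analysed there. In the annotation of the same build, Cox4i1 (chr8:120668222-120674207, plus strand) lies wholly within Gm20388 on the same strand, and Ndufa13 (chr8:69894180-69902558, minus strand) wholly within Yjefn3. Reads of overlapping genes can be lost or split in counting, so both values are uncertain, and its part in the zeros was not tested. Parts of Ndufb9 (62.9%), Ndufb8 (62.0%) and Ndufb2 (37.2%) are covered by same-strand genes as well. Their values in nuclei are uncertain too, and they were kept in the counts and medians.

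Members with longer gene bodies were less depleted in nuclei. Sorted into 3 bins by gene body length, the median change of the males was -4.40 for the 28 shortest (1205 to 5423 bases), -3.93 for 27 of middle length and -3.14 for the 28 longest (10809 to 155909 bases). The females gave -6.14, -5.78 and -3.93 over 28, 28 and 29 genes. The rank correlation across genes was 0.441 over 83 and 0.521 over 85 members, as a description, since genes are not replicates and nuclei were counted over introns too. Ndufaf2, with the longest body (155909 bases), changed by -1.78 ± 0.18 in males and -1.41 ± 0.11 in females. Ndufs4 (100464 bases) changed by -1.27 ± 0.15 and -1.70 ± 0.09, and Ndufa10 (34851 bases) by -2.925 ± 0.139 and -3.926 ± 0.104. At the short end the members were spread. Atp5k (1205 bases) changed by -5.46 ± 0.19 and -6.18 ± 0.19. Cox6b2 (1303 bases) changed by -0.35 ± 0.35 in males, which did not pass, and by -2.67 ± 0.23 in females. In females Cox6a2 (953 bases) changed by -5.91 ± 0.63, and Cox8b (1502 bases) by -0.44 ± 0.78, which did not pass. Cox6a2 and Cox8b were not tested in males.

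**Figure D4:**
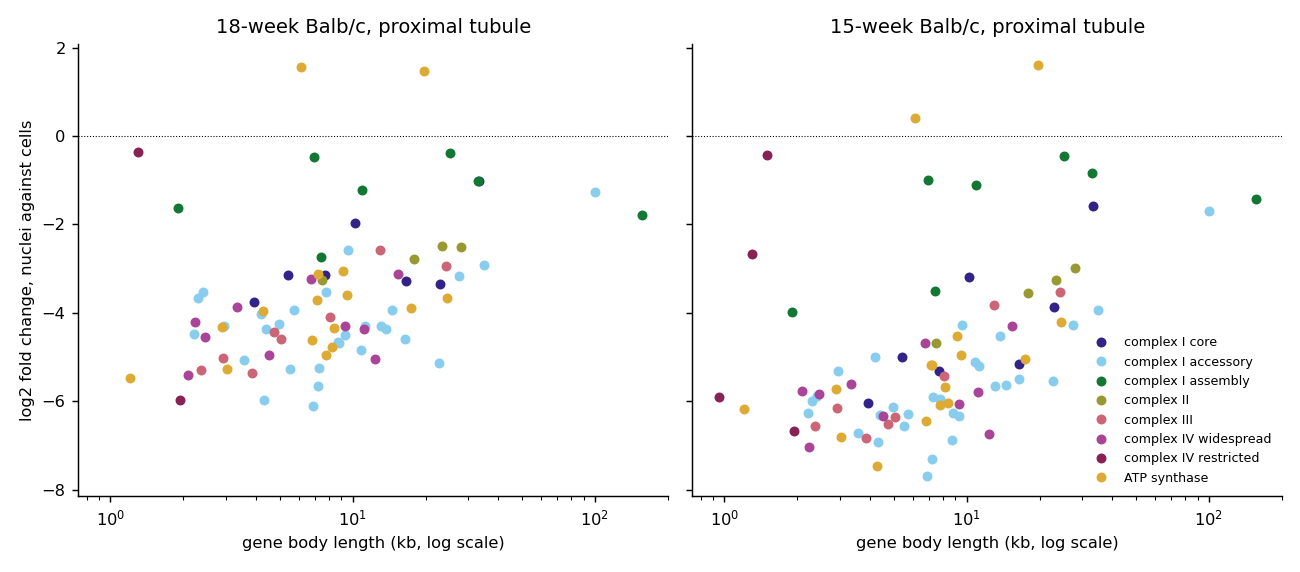
Log2 fold change of nuclei against cells in the proximal tubule (vertical axis) against gene body length in kb (horizontal log axis) for 18-week males and 15-week females of Balb/c; each point is a member, colored by role, without Cox4i1 and Ndufa13. Longer genes sit higher, with a rank correlation of 0.441 over 83 members in males and 0.521 over 85 in females.

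In endothelial nuclei 71 of 79 members were lower and 2 higher than in cells in the males (72.6% of genes called, median -2.42; 69 of 77 lower without Cox4i1 and Ndufa13), and 75 and 2 of 82 in the females (79.0% called, median -3.68). The drop was smaller in endothelial cells than in the proximal tubule for 64 of 86 members in the males (edgeR interaction test, 16.3% of genes called) and for 75 of 85 in the females, with 1 the other way (30.5%). The 86 of the males include Cox4i1 and Ndufa13, whose values in nuclei are uncertain. With Atp5b as the example, the difference between the changes was 1.75 ± 0.27 and 1.67 ± 0.16. Among classes of the 3x500g nuclei of the females the share of member UMIs ran from 0.227% ± 0.0086 in podocytes over 0.298% ± 0.020 in endothelial cells and 0.375% ± 0.044 in the proximal tubule to 0.492% ± 0.026 in the thick ascending limb and 0.501% ± 0.0092 in intercalated cells. The order of endothelial and proximal tubule nuclei was not the same in every protocol and set. Endothelial nuclei had 2 members higher and 42 lower of 83 in the female 3x500g set (63.5% of all genes called) and 12 higher and 36 lower of 85 with sucrose (72.1%). In the 1x2000g set 46 were higher and 20 lower of 85 (73.4%), and in the male 3x500g set 5 were higher and 2 lower of 83 (28.0%; 0 by DESeq2, and 17 at an unadjusted p under 0.05). Proximal tubule markers took 1.22 to 1.29% of endothelial UMIs in the male nuclei, against 0.14 to 0.20% in the female 3x500g nuclei, and their part was not tested.

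The nuclei protocols were compared with each other in the females, with the 3x500g libraries as the shared reference. A single spin at higher speed (1x2000g) gave proximal tubule nuclei with 55 of 86 members higher and 1 lower than 3x500g, where 24.2% of 15064 genes were called (15.0% higher, 9.19% lower), with a median of 0.56. Ndufa4 went from 0.366, 0.401 and 0.276 to 1.03, 0.774 and 1.12 UMIs per 10000 (1.49 ± 0.17, adjusted p = 0.0015), Cox8a from 0.941, 1.12 and 0.911 to 2.57, 2.39 and 2.66 (1.36 ± 0.09) and Cox6a1 from 0.462, 0.609 and 0.462 to 1.26, 1.16 and 1.25 (1.26 ± 0.10). The groups stood apart in each. The lower one was Ndufaf5, a complex I assembly factor, from 0.185, 0.177 and 0.172 to 0.143, 0.145 and 0.135 (-0.34 ± 0.08).

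By role, 10 of 10 widespread complex IV genes, 14 of 17 ATP synthase genes, 21 of 29 accessory complex I genes and 6 of 8 complex III genes were called in that comparison, against 2 of 7 core complex I and 1 of 4 complex II genes. Endothelial nuclei had 65 of 82 members higher (12.1% of genes higher, median 1.25) and thick ascending limb nuclei 62 of 84 (15.4%). The change was larger in endothelial than in proximal tubule nuclei for 30 of 85 members and smaller for 0 (edgeR interaction test, 2.89% of genes called). Proximal tubule markers took 0.14 to 0.20% of endothelial UMIs in 3x500g and 0.456 to 0.616% in 1x2000g, and hemoglobin genes 0.00025 to 0.0036% and 0.0047 to 0.0125% of proximal tubule UMIs, and their part was not tested. Carrier and exchange genes had 4 of 10 called, citric acid cycle genes 1 of 13, and regulators 0 higher and 3 lower of 11.

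Sucrose-gradient nuclei had 30 of 85 members higher and 7 lower in the proximal tubule than 3x500g nuclei (35.9% of 14858 genes called, 18.7% higher and 17.2% lower), with a median of 0.20. Atp5a1, the catalytic-ring alpha subunit of ATP synthase, went from 1.26, 1.64 and 1.22 to 3.15, 2.84 and 3.19 UMIs per 10000 (1.15 ± 0.10, adjusted p = 0.00039). Ndufb8 went from 0.0839, 0.128 and 0.0915 to 0.220, 0.204 and 0.141 (0.89 ± 0.19) and Cox7c from 0.566, 0.810 and 0.637 to 1.28, 1.09 and 1.21 (0.82 ± 0.11). Downward, Ndufb4 went from 0.243, 0.305 and 0.238 to 0.186, 0.175 and 0.176 (-0.56 ± 0.10), and Ndufaf5 (-0.52 ± 0.10) and Ndufv2 (-0.32 ± 0.09) followed. The count was 24 without 3x500g replicate 3 or sucrose replicate 2. Endothelial nuclei had 22 of 82 higher and 0 lower (9.54% of genes higher) and thick ascending limb nuclei 35 of 83 higher and 4 lower (19.1% higher). Members higher and 0 lower were also found in intercalated cells (36 of 81, 10.8% of genes higher; 20 by DESeq2), connecting tubule (25 of 77, 11.6%; 8 by DESeq2), distal convoluted tubule (20 of 83, 20.5% of genes called either way; 11 by DESeq2), principal cells (16 of 81, 10.6%; 10 by DESeq2) and thin limb (11 of 72, 7.76%; 7 by DESeq2). Fibroblasts had 1 of 73 higher (1.31%) and mural cells 1 of 36 (1.75%). In podocytes and macrophages edgeR and DESeq2 called 0 of 12 and 37 members, beside 5.64 and 4.47% of all genes called by edgeR. At the looser unadjusted p under 0.05 there were 2 and 7 members. Proximal tubule markers took 0.203 to 0.25% of UMIs in sucrose endothelial nuclei.

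The bulk comparison of intact Balb/c kidney with cold suspensions of the same strain, sex and age asked how suspensions differ from the organ. Of 90 members 11 were called, 4 higher and 7 lower in intact kidney, where 12.1% of 16538 genes were called higher and 7.91% lower, and the median was -0.07. The count was 3 to 10 without 1 library: 3 without cold replicate 1, 4 without cold replicate 2 or intact replicate 1, and 5 without cold replicate 3 or intact replicate 2. Without a filter on low counts it was 6. Cox8b, the heart and muscle form of subunit VIII that brown fat also expresses, had 2.01, 1.11 and 2.00 reads per 1000000 in suspensions and 9.51, 4.65 and 6.26 in intact kidney (2.06 ± 0.31, adjusted p = 0.0015). The groups did not overlap, and adipocyte markers took 0.00028 to 0.00038% of suspension reads and 0.00035 to 0.0014% of intact kidney reads, a part that was not tested. In the C57BL/6J suspensions Cox8b had 0 reads in each library, which allows up to 3.

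Ndufa4l2, the gene led by mural cells above, had 1.86, 1.43 and 0.933 reads per 1000000 in suspensions and 2.67, 3.35 and 2.67 in intact kidney (1.09 ± 0.24, adjusted p = 0.010). Ndufaf6 went from 19.9, 17.9 and 18.7 to 23.9, 22.8 and 23.2 (0.35 ± 0.07) and Ndufb8 from 249, 246 and 259 to 295, 264 and 305 (0.25 ± 0.06). Lower in intact kidney were Atp5sl, from 113, 103 and 94.6 to 80.4, 87.5 and 79.0 (-0.29 ± 0.07), Atp5g1, from 176, 173 and 185 to 151, 145 and 159 (-0.18 ± 0.05), Atp5o, from 342, 331 and 345 to 298, 280 and 296 (-0.17 ± 0.05), and Cox5b, Ndufb10, Ndufa11 and Ndufb7. The reference subunits Ndufs1 (0.05 ± 0.06), Sdha (-0.06 ± 0.06), Uqcrc1 (-0.04 ± 0.06), Cox5a (-0.06 ± 0.05) and Atp5b (-0.11 ± 0.06) did not pass.

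The partner genes of the mitochondrial genome moved much further than the nuclear ones. All 11 tested were lower in intact kidney, with a median of -1.01, and mitochondrially encoded reads took 3.97 to 4.86% of suspension libraries and 2.22 to 2.32% of intact kidney libraries, all of which were poly(A)-selected. The summed share of the 91 nuclear genes was 2.36% ± 0.033 in suspensions and 2.18% ± 0.064 in intact kidney. Carrier and exchange genes had 4 of 11 lower, citric acid cycle genes 1 of 13 lower, and regulators 2 of 11 higher.

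**Figure D5:**
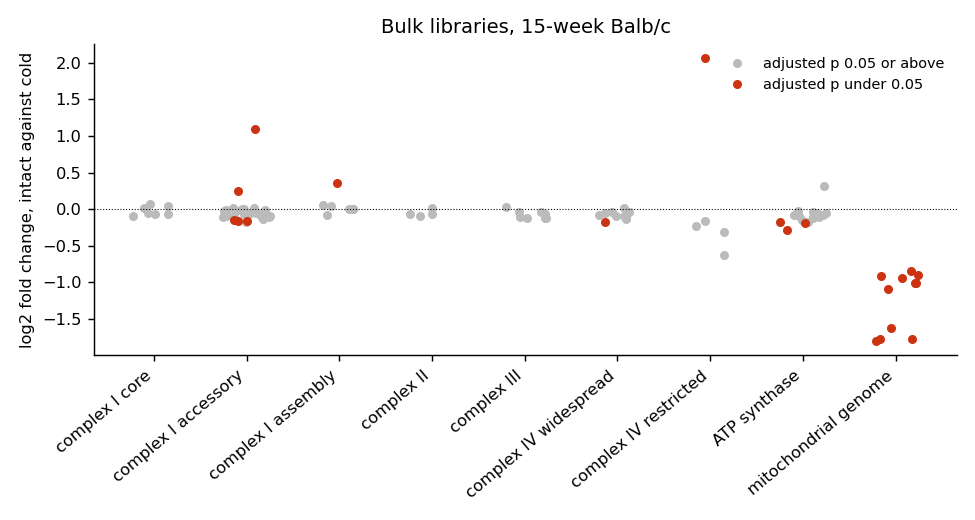
Log2 fold change of intact kidney against cold suspensions in bulk RNA-seq of 15-week Balb/c females (vertical axis) for members by role and, in the last column, for genes of the mitochondrial genome; points are genes, red where the adjusted p was under 0.05. The members center near 0 (median -0.07) and the mitochondrial genome near -1 (median -1.01).

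Per kb of exon the bulk libraries ordered the members as follows. The length used was the union of all annotated exons of a gene, which can exceed its main transcript, so the order depends on it. For example, Atp5b, with 4237 such bases, had 2382 ± 99 reads per 1000000 in cold C57BL/6J suspensions. Atp5a1, with 3135 bases, had 1874 ± 51. Atp5a1 was highest in cold C57BL/6J suspensions with 598 ± 16.2 reads per kb per 1000000 (n = 3), then Atp5b, the catalytic beta subunit, with 562 ± 23.3, a difference within the summed spread of the 2. Cox8a (396 ± 16.9) and Cox6b1 (382 ± 19.4) came next and did not differ beyond their spread, followed by Uqcr10 (278 ± 10.6) and Uqcrfs1, the Rieske iron-sulfur protein (258 ± 5.0). In Balb/c female suspensions the first were Atp5a1 (741 ± 16.2), Atp5b (685 ± 14.3), Cox8a (570 ± 9.8), Cox6a1 (512 ± 11.3) and Cox4i1 (457 ± 8.7). The lowest with reads in C57BL/6J were Cox4i2 (0.62 ± 0.38), Ndufa4l2 (0.83 ± 0.32) and Ndufaf2 (1.09 ± 0.18).

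The male intact kidney libraries gave 1.55% ± 0.23 for the summed share, with replicate 2 apart at 1.81% against 1.41 and 1.42%. That library was also the shallowest. Cox6a1 had 326, 807 and 312 reads per kb per 1000000 in the 3, so its mean rested on replicate 2. These libraries entered no test.

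Bulk and 10x counts ranked some members very differently. The level in fresh cold female cells, in UMIs per 1000000, divided by the bulk reads per 1000000 of female suspensions, had a median of 4.88 over 90 members and ran from 0.376 for Sdha to 75.7 for Atp5l. Sdha had 4.25 ± 0.16 UMIs per 10000 and 1131 ± 25.5 reads per 1000000, and Atp5l, subunit g of ATP synthase, 16.8 ± 0.48 and 22.2 ± 1.2. Ndufb4 (37.6) and Atp5g2 (29.6) were also high. Reads are counted along the transcript and UMIs at its 3′ end, and 3 pseudogene symbols of the Atp5l family are listed, so reads of near-identical copies make its bulk value uncertain. In C57BL/6J the ratio had a median of 8.33 over 89 members and ran from 0.306 for Ndufs1 to 249.9 for Atp5k, with Ndufb2 at 64.8, Atp5l at 20.7 and Sdha at 0.475. The genes at the ends thus differed between the sets. These sets also differ in strain, sex, age, 10x chemistry and bulk preparation, which was poly(A) selection in the females and rRNA depletion in C57BL/6J. The part of transcript length and of such copies was not tested.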

How the data were processed

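Single-cell, single-nucleus and bulk RNA-seq of adult mouse kidney were used as deposited. The authors made the 10x UMI counts per gene and barcode with Cell Ranger 2.1.1, on exonic reads for cells and on intronic and exonic reads for nuclei, called cells with EmptyDrops and filtered barcodes and genes before deposit. They made the bulk read counts with STAR 2.6.1a and featureCounts after rRNA depletion, except the 15-week Balb/c libraries, which were poly(A)-selected. The builds named in the submitters' processing notes are GRCm38 and mm10. Other deposited tools were Seurat 2 and Trim Galore.

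The 91 members, the gene lists and the cell class markers were chosen with earlier results of these data known. Groups came from the sample labels. Barcodes were clustered per set without the members (2000 variable genes, 30 principal components, 20 neighbours, Leiden resolution 2) with Python 3.11.15, scikit-learn 1.9.0 and leidenalg 0.10.2. A marker counted for a cluster at a detection share of 0.1 and 1.5-fold over the rest, and 3 were needed. Doublets were marked at 0.8% per 1000 barcodes and kept in the main results. UMIs of each class were summed per library where every library held at least 20 barcodes. Mitochondrially encoded genes were left out of the totals. The sums were tested with edgeR 4.0.16 (R 4.3.3, quasi-likelihood test, TMM scaling, filterByExpr) over all genes, with Benjamini-Hochberg adjusted p-values, in 189 comparisons. Tests were first run on simulated data with known changes. DESeq2 1.42.0 was an alternative. Named members were the 3 with the largest change in each direction among those called, plus 1 reference subunit of each complex. Other genes are named as exceptions after their values were seen. The annotation (GENCODE vM21) matched 90 of the 91. Counting intervals and floors cover counting error only.

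The C57BL/6J column headers carry the numbers 20, 21 and 22, which the sample labels do not explain. They were read as kidney numbers, since each stored column carries the name of a fresh library and the methods describe stored cells as aliquots of fresh suspensions. The counts with a replicate block rest on that reading. Correlations of same-numbered deviations were 0.17, 0.13 and 0.34 for methanol after cold dissociation, 0.097, 0.22 and 0.15 after warm, 0.17, 0.065 and 0.14 for endothelial cells cryopreserved after cold, and 0.016, 0.050 and 0.010 after warm dissociation. Between warm and cold fresh libraries they were 0.15, 0.027 and -0.066.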

Additional observations from a re-analysis of the deposited data

Results flagged for a closer look

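The results here were picked because a change differed between a pair of classes, or between warm and cold dissociation, in an edgeR interaction test of the difference itself.

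After methanol fixation of cold-dissociated C57BL/6J cells, 27 of 86 members changed more upward in endothelial cells than in the proximal tubule (5.97% of all genes called; 46 members with library totals), with a median difference of 0.56 on the log2 scale. Cox5a was among them (0.72 ± 0.23), as was Cox5b (0.70 ± 0.22), and Atp5b (0.63 ± 0.22) was not. Between macrophages and proximal tubule the count was 7 of 86 (2.18% of all genes; 27 members with totals), with a median difference of 0.55.

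Between nuclei and cells, 64 of 86 members differed between endothelial cells and proximal tubule in the Balb/c males (16.3% of all genes; 55 with totals), with a median difference of 1.35. These 86 include Cox4i1 and Ndufa13, whose values in nuclei are uncertain. In the Balb/c females 76 of 85 members differed, 75 upward and 1 downward (30.5% of all genes; 70 with totals), with a median of 1.40. Cox5a differed by 1.50 ± 0.29 and 1.65 ± 0.17 and Ndufs1 by 1.37 ± 0.46 and 1.56 ± 0.20. Between 1x2000g and 3x500g nuclei 30 of 85 members rose more in endothelial cells (2.89% of all genes; 34 with totals), with a median of 0.61. Cox5a differed by 1.07 ± 0.15 there and Ndufs1 by -0.04 ± 0.14.

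The change on cryopreservation of C57BL/6J endothelial cells differed between warm and cold dissociation for 1 of 80 members (0.589% of all genes), with a median difference of 0.50. Atp5b differed by 0.52 ± 0.23, with an edgeR adjusted p of 0.46.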

How the results depend on the processing

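Asking for a log2 fold change of 1 left 2 members in the bulk intact comparison, 1 in the methanol-fixed proximal tubule after cold dissociation and 0 after warm, 0 in fresh warm proximal tubule, 0 in endothelial cells cryopreserved after cold or after warm dissociation and in Balb/c, 12 for 1x2000g nuclei, 1 for sucrose nuclei and 4 between thick ascending limb and proximal tubule. Without a filter on low counts the bulk intact count was 6 and that of endothelial cells cryopreserved after warm dissociation 4. Library totals gave 13 for fresh warm proximal tubule, and 18 and 1 for endothelial cells cryopreserved after cold and warm dissociation. In the storage comparisons totals shifted the median of all genes by between -0.23, in principal cells cryopreserved after warm dissociation, and 0.22, in macrophages methanol-fixed after cold dissociation. DESeq2 gave 4, 0 and 1 for endothelial cells cryopreserved after cold, after warm and in Balb/c, and 6 for thick ascending limb, and removing doublets gave 3, 13 and 0 for the same endothelial comparisons.

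With the kidney number as a replicate block, 26 members were called in endothelial cells cryopreserved after cold dissociation and 0 after warm. It gave 58 and 50 in methanol-fixed proximal tubule after cold and warm. In fresh warm against cold proximal tubule, where a shared number cannot be 1 kidney but may be 1 mouse, 6 were called. The other class comparisons whose count the block moved by over 1.5 times are given beside them, except the distal convoluted tubule cryopreserved after warm dissociation (1 in place of 0). No paired analysis was possible for the bulk and Balb/c comparisons because their labels share no kidney numbers, although the thawed and fresh Balb/c libraries were aliquots of the same suspensions.

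Without 1 library at a time the counts ran from 3 to 10 for bulk intact, 0 to 21 for fresh warm proximal tubule, 25 to 46 and 17 to 31 for methanol after cold and warm, 1 to 13 and 0 to 7 for endothelial cells cryopreserved after cold and warm, 0 to 27 for those of Balb/c, 83 to 85 and 85 to 85 for nuclei of males and females, 43 to 62 for 1x2000g, 24 to 34 for sucrose, 18 to 30 for thick ascending limb, 79 to 82 for endothelial against proximal tubule cells and 0 to 0 for bulk warm. Of 668 values for 54 pairs of a named gene and a comparison under these settings, 561 kept their direction and side of the threshold, 107 kept direction only and 0 reversed. These pairs were picked for the largest called changes of the main fit, and the settings reuse most of its libraries. The 0 reversals were thus nearly fixed in advance and do not speak for the other members. Depth limits the small classes, where fewer genes passed the filter.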
